A study of Arabidopsis thaliana with 15 samples.

Results

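WRKY transcription factors were examined in the systemic leaf 6 of Arabidopsis plants whose leaf 1 had been treated. The members were the 45 WRKY genes on a fixed list of gene IDs, out of 32833 genes in the expression table. A member was tested when it had at least 1 FPKM (fragments per kilobase of transcript, scaled to the mapped fragments of a library) in 3 or more of the 15 libraries. By this filter 30 members were tested, and the other 15 were taken as not expressed. All plants were wild type Col-0, grown for 22 to 24 days on MS medium, and RNA came from leaf 6. There were 5 groups of 3 libraries. The GSH group had received 100 mM glutathione and the Glu group 100 mM glutamate on leaf 1 for 1 h, and their mock group carried no small molecule. The wounding group was sampled 1 h after injury of leaf 1 and the wounding mock group before it. The methods of the study place the small molecules on the cut edge of a leaf that had been cut some hours earlier, and whether the mock leaves were cut as well is not stated. The labels put the mock and wounding mock libraries at 0 min, so an effect of treatment and of 1 h of passing time cannot be told apart. The labels do not say that the 3 libraries of a group came from separate plants, so the p values measure the spread between these libraries.

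WRKY factors are named after the conserved WRKYGQK peptide of their DNA-binding domain, which also holds a zinc finger. They bind the W box, a DNA element with the core TTGAC, and many WRKY genes carry W boxes in their own promoters. In leaves they are known as regulators of immunity, of the balance between salicylic acid and jasmonate signalling, and of senescence. The family is divided into the subgroups I, IIa, IIb, IIc, IId, IIe and III.

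The 250 bases before the gene start are shown for a pair of members that were higher after wounding (WRKY40 and WRKY18) and a pair that were lower (WRKY7 and WRKY11). They are given 5′ to 3′ on the strand of the gene, from RefSeq TAIR10.1, and capitals mark the W box core TTGAC or its complement GTCAA.
WRKY40, chr1:30383311-30383560, plus strand: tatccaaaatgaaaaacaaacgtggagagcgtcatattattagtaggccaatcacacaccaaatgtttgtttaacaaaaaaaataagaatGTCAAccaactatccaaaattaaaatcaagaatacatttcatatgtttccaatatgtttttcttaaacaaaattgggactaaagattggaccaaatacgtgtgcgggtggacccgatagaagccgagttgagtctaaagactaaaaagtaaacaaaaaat
WRKY18, chr4:15382527-15382776, plus strand: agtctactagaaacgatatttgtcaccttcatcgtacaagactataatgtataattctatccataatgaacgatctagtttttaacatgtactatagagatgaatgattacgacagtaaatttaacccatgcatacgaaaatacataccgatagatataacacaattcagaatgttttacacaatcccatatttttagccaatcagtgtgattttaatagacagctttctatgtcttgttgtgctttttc
WRKY7, chr4:12571288-12571537, plus strand: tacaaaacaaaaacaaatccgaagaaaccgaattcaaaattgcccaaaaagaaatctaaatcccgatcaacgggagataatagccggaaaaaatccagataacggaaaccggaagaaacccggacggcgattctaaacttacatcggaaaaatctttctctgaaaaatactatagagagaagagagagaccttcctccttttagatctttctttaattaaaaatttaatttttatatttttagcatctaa
WRKY11, chr4:15291935-15292184, minus strand: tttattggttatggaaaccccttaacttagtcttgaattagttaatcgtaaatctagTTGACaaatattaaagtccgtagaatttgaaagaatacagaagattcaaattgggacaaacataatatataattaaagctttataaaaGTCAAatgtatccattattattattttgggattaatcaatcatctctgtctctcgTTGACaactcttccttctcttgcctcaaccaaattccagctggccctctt
The core was found 1 time in the window of WRKY40, 3 times in that of WRKY11 and 0 times in those of WRKY18 and WRKY7. The full W box, TTGACC or TTGACT on either strand, was present only in the window of WRKY11 among these 4 windows, at position -106 from the gene start. The core lies within every full W box, so the counts overlap. Across the family, a full W box was found in 15 of 45 windows (33.3%), against 28.4% of the windows of 27443 protein-coding genes. At least 2 full W boxes were found in 8 of 45 windows (17.8%), against 6.18% of all windows. The G box CACGTG was found in 5 of 45 windows (11.1%), against 6.49%. These matches describe letters in the windows, and binding was not measured.

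WRKY70, a regulator of salicylic acid signalling, was the WRKY gene with the highest level in untreated leaf 6. Its values were 40.7, 41.5 and 38.4 FPKM in the mock libraries. WRKY3 followed at 19.2 ± 0.36 FPKM and WRKY11 at 16.2 ± 0.98 FPKM (mean ± SD, n = 3 mock libraries). FPKM is a level per length, so levels of different genes can be set side by side. The mock libraries of these 3 genes did not overlap each other, whereas 17 of the 29 pairs of neighbours in the order of the mock means had overlapping libraries. WRKY1, WRKY20, WRKY54 and WRKY15 had mock means between 10.7 and 13.4 FPKM. A mock mean of at least 10 FPKM was reached by 7 members, and 8 tested members had a mock mean under 1 FPKM. WRKY40, WRKY46 and WRKY53, all known from pathogen responses, stood at the low end of the tested members with 0.433, 0.348 and 0.336 FPKM. In 20 members the value was at least 1 FPKM in all 15 libraries.

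**Figure D1:**
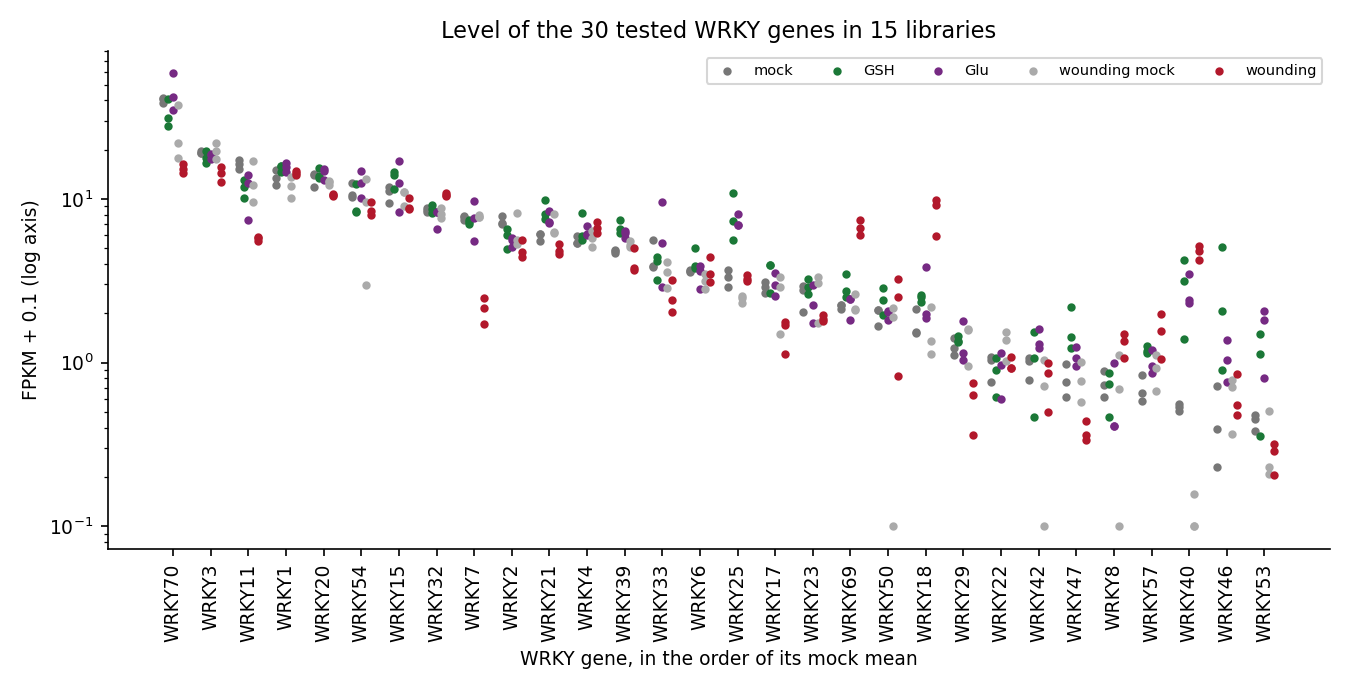
Level of each of the 30 tested WRKY genes in the 15 libraries as FPKM + 0.1 on a log axis, with genes in the order of their mock mean and 1 point per library coloured by group. WRKY70 is at the upper end at 40.2 FPKM in mock, and WRKY40 is at 0.433 FPKM in mock and 4.63 FPKM in wounding.

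The FPKM values of the 45 members summed to 190, 197 and 193 in the mock libraries. In the GSH libraries the sums were 207, 210 and 191, and in the Glu libraries 211, 185 and 241. These sums overlapped between the 3 groups. The wounding mock libraries summed to 148, 174 and 179 FPKM and the wounding libraries to 146, 163 and 150 FPKM, which also overlapped. WRKY70 held 20.8% ± 0.79 (SD, n = 3) of the sum in mock and 9.91% ± 0.17 (SD, n = 3) in wounding. In the wounding mock libraries its share ran from 11.9% to 20.8%. In whole leaves, fewer cells that express a gene and less RNA per cell cannot be told apart.

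The markers of leaf mesophyll were all detected, with summed levels from 30512 to 41351 FPKM, while 0 of 5 root markers and 0 of 4 flower markers passed the filter. Their summed mesophyll level was 38806 to 41351 FPKM in wounding mock and 30512 to 32048 FPKM in wounding. The 3 guard cell markers summed to 27.7 to 30.7 FPKM in mock, 35.4 to 42.2 in GSH, 39.4 to 42.5 in Glu, 25.2 to 27.5 in wounding mock and 33.8 to 35.5 in wounding. These 3 markers were not alike, since KAT1 overlapped its control after every treatment. FMA was above its control without overlap after Glu and wounding only, and MYB60 after GSH and Glu only. The 2 phloem markers summed to 116 to 140 FPKM in wounding mock and 84.3 to 94.8 FPKM in wounding, and to 97.6 to 149 FPKM over the mock, GSH and Glu libraries. The 2 phloem markers went in opposite directions after wounding. SUC2 had 108, 117 and 131 FPKM in wounding mock and 85.4, 75.7 and 72.8 FPKM in wounding. APL had 7.70, 9.04 and 8.37 FPKM in wounding mock and 9.37, 11.3 and 11.5 FPKM in wounding. The part of these shifts in the WRKY values was not tested. Between 21090 and 21750 genes were above 0 in 14 libraries, but 18664 in wounding mock replicate 1, in which 16 of the 45 members were listed at 0 against 4 to 7 in the others. Results of wounding are therefore also given without this library.

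Each treatment was compared with its own mock group by limma on log2(FPKM + 1), in which addition of 1 makes the fold changes of low genes smaller than the ratios of their FPKM. A gene had passed when its adjusted p (Benjamini-Hochberg over 17571 genes) was under 0.05, and a DEG (differentially expressed gene) also had an absolute log2 fold change above 1. After GSH, 3 of 30 members passed against 4.45% of all tested genes. Of these, 2 were higher (3.92% of all genes) and 1 was lower (0.535%). After Glu, 3 members passed against 9.37% of all genes, with 3 higher (6.66%) and 0 lower (2.71%). After wounding, 5 members passed against 18.6% of all genes, with 3 higher (8.29%) and 2 lower (10.3%). DEGs were 2 members after GSH (1.23% of all genes), 1 after Glu (1.22%) and 5 after wounding (7.69%). The 30 members had median log2 fold changes of 0.18 (GSH), 0.14 (Glu) and -0.10 (wounding), and that of all tested genes was 0.05, 0.01 and -0.08. An unadjusted p under 0.05 was reached by 11 members after GSH (20.3% of all genes), 8 after Glu (26.4%) and 11 after wounding (31.2%). The libraries of treatment and control did not overlap in 13 members after GSH (26.4% of all genes), 13 after Glu (31.9%) and 15 after wounding (38.3%). The GSH and Glu comparisons share their mock libraries and are not independent.

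**Figure D2:**
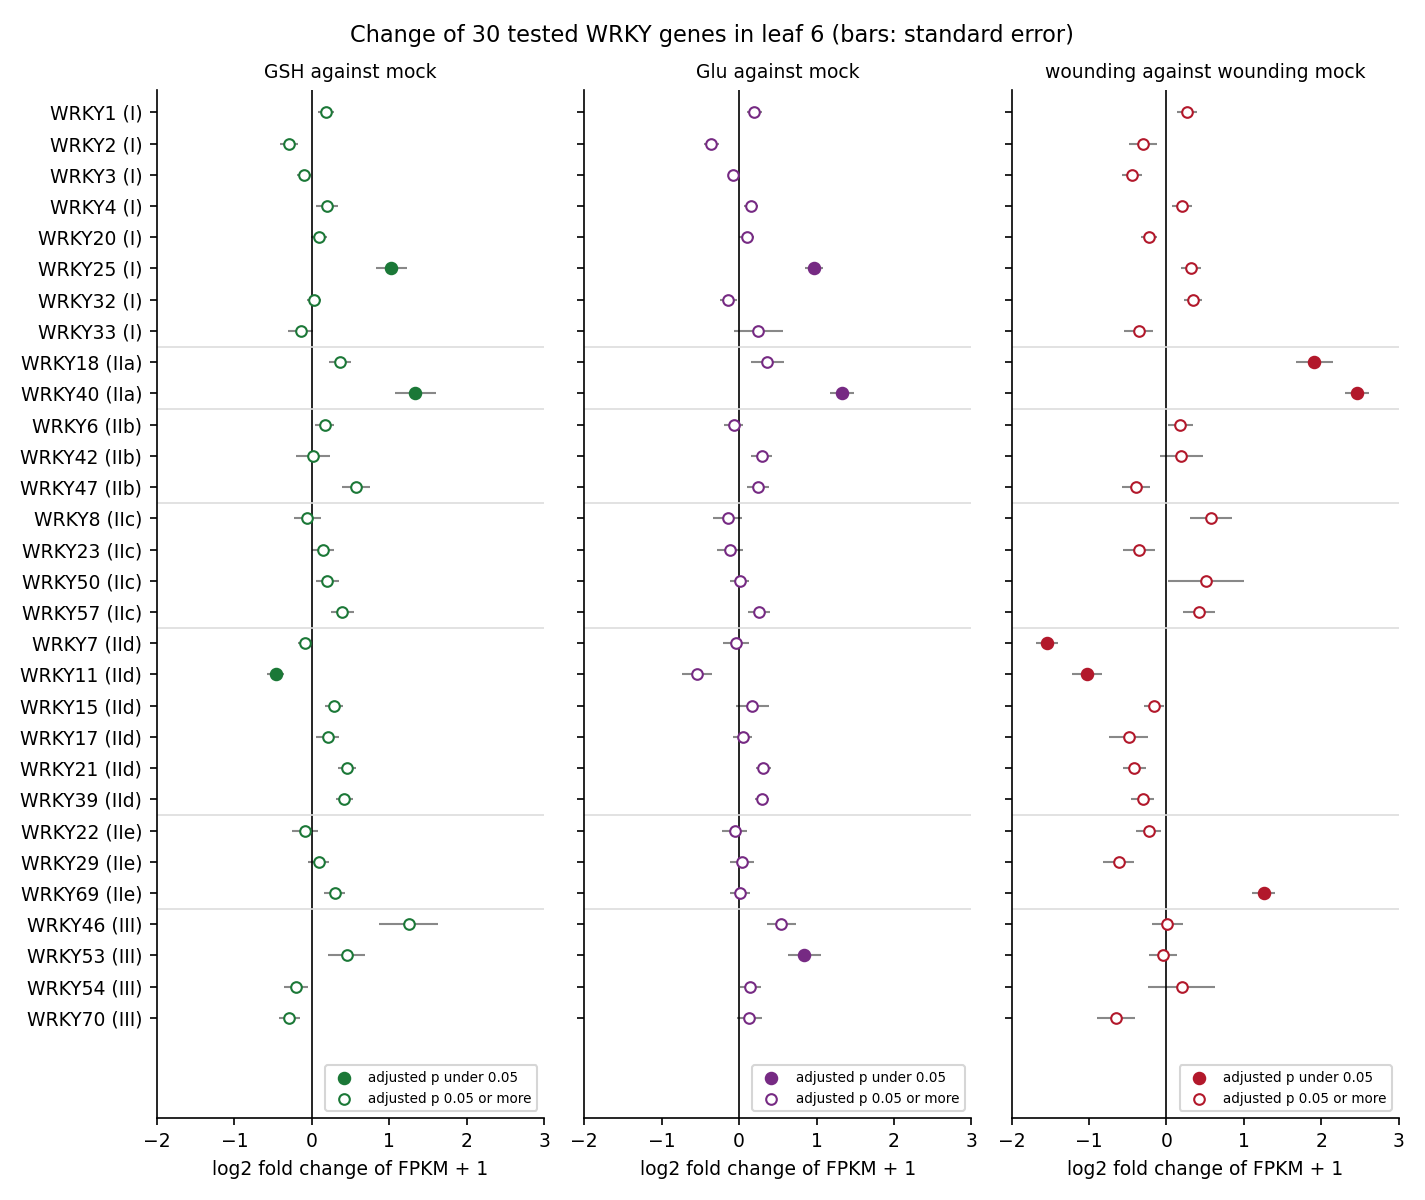
Log2 fold change of FPKM + 1 with its standard error for the 30 tested WRKY genes, ordered by subgroup, in the 3 comparisons. Filled points passed an adjusted p of 0.05. WRKY40 is filled in all 3 panels, WRKY25 in the GSH and Glu panels, and WRKY18, WRKY69, WRKY7 and WRKY11 in the wounding panel.

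WRKY40 (AT1G80840, chromosome 1, 30383561 to 30385499, plus strand), a subgroup IIa factor that acts with WRKY18 and WRKY60 in the control of basal defence, was higher after all 3 treatments. Its level was 0.461, 0.432 and 0.406 FPKM in the mock libraries, 1.29, 4.14 and 3.03 FPKM in the GSH libraries and 2.32, 2.20 and 3.38 FPKM in the Glu libraries. In the wounding mock libraries it was listed at 0, 0 and 0.0579 FPKM, and in the wounding libraries at 4.71, 5.06 and 4.12 FPKM. Every treated library was above every library of its own control, and GSH replicate 1 was the lowest treated library. WRKY40 reached 1 FPKM only in treated libraries, so the filter favoured values above the controls. The log2 fold change was 1.34 after GSH (SE 0.26, adjusted p = 0.027), 1.33 after Glu (SE 0.15, adjusted p = 0.0017) and 2.46 after wounding (SE 0.15, adjusted p = 3.8e-05). On the FPKM scale the mean was 6.51 times the mock mean after GSH and 6.09 times after Glu. No ratio is given for wounding, since 2 control libraries were listed at 0. The GSH call was lost without mock replicate 1, 2 or 3 or GSH replicate 2 or 3, with an adjusted p between 0.079 and 0.101, while the log2 fold change stayed between 1.09 and 1.35. WRKY40 overlaps AT1G80850 on the other strand, and strand use in the counting is not stated. AT1G80850 stood at 7.61 FPKM in wounding mock and 4.85 FPKM in wounding, a change that did not pass (log2 fold change -0.53, adjusted p = 0.14). The part of shared reads in the WRKY40 values was not tested.

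WRKY18 (AT4G31800, chromosome 4, 15382777 to 15385100, plus strand), the partner of WRKY40 in subgroup IIa, was higher after wounding. The wounding mock libraries had 1.03, 1.26 and 2.10 FPKM and the wounding libraries 5.87, 9.81 and 9.11 FPKM. These groups did not overlap, and the means differed 5.66-fold, with a log2 fold change of 1.91 (SE 0.24, adjusted p = 0.0014). In the mock libraries WRKY18 had 2.04, 1.42 and 1.45 FPKM, in the GSH libraries 2.23, 2.47 and 2.42 FPKM and in the Glu libraries 1.89, 1.77 and 3.73 FPKM. The GSH libraries were all above the mock libraries, the Glu libraries were not. The log2 fold changes of 0.36 after GSH (SE 0.14, adjusted p = 0.18) and 0.36 after Glu (SE 0.21, adjusted p = 0.32) did not pass the test. WRKY60, the remaining IIa gene, failed the filter and was not tested. It was listed between 0.112 and 0.279 FPKM in mock, between 0.499 and 0.767 FPKM in GSH and between 0.434 and 1.07 FPKM in Glu. In wounding mock it was listed at 0, 0.527 and 0.384 FPKM and in wounding at 0.203, 0.222 and 0.0685 FPKM, which overlapped.

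WRKY25 (AT2G30250, chromosome 2, 12903208 to 12905338, minus strand), a subgroup I factor known from heat and defence responses, was higher after GSH and after Glu. The mock libraries had 2.78, 3.23 and 3.60 FPKM, the GSH libraries 5.51, 10.7 and 7.19 FPKM and the Glu libraries 6.83, 7.94 and 6.86 FPKM. All 6 treated libraries were above the mock libraries, and the spread was larger among the GSH libraries. WRKY25 had a log2 fold change of 1.03 after GSH (SE 0.20, adjusted p = 0.025) and 0.97 after Glu (SE 0.11, adjusted p = 0.0019). The FPKM means were 2.44 and 2.25 times the mock mean. As for WRKY40, the GSH call was lost without mock replicate 1, 2 or 3 or GSH replicate 2 or 3, with an adjusted p between 0.051 and 0.105. After wounding the libraries had 3.32, 3.14 and 3.07 FPKM against 2.21, 2.39 and 2.45 FPKM in wounding mock. These groups did not overlap either, but the log2 fold change of 0.32 (SE 0.13, adjusted p = 0.15) did not pass the test.

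WRKY69 (AT3G58710, chromosome 3, 21714911 to 21716916, plus strand), a subgroup IIe gene, was higher after wounding. Its level was 2.53, 2.03 and 1.99 FPKM in wounding mock and 6.53, 7.31 and 5.93 FPKM in wounding, without overlap. WRKY69 rose by 1.25 on the log2 scale (SE 0.15, adjusted p = 0.001) and the FPKM means differed 3.02-fold. In the mock, GSH and Glu libraries the values lay between 1.73 and 3.39 FPKM. The log2 fold changes there were 0.30 after GSH (SE 0.13, adjusted p = 0.26) and 0.01 after Glu (SE 0.13, adjusted p = 0.96). WRKY69 overlaps AT3G58720 and a long noncoding RNA gene, AT3G09145, on the other strand. AT3G58720 stood at 5.70 FPKM in wounding mock and 7.60 FPKM in wounding, and AT3G09145 at 0.0542 and 0.689 FPKM, so shared reads cannot be told apart from reads of WRKY69.

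**Figure D3:**
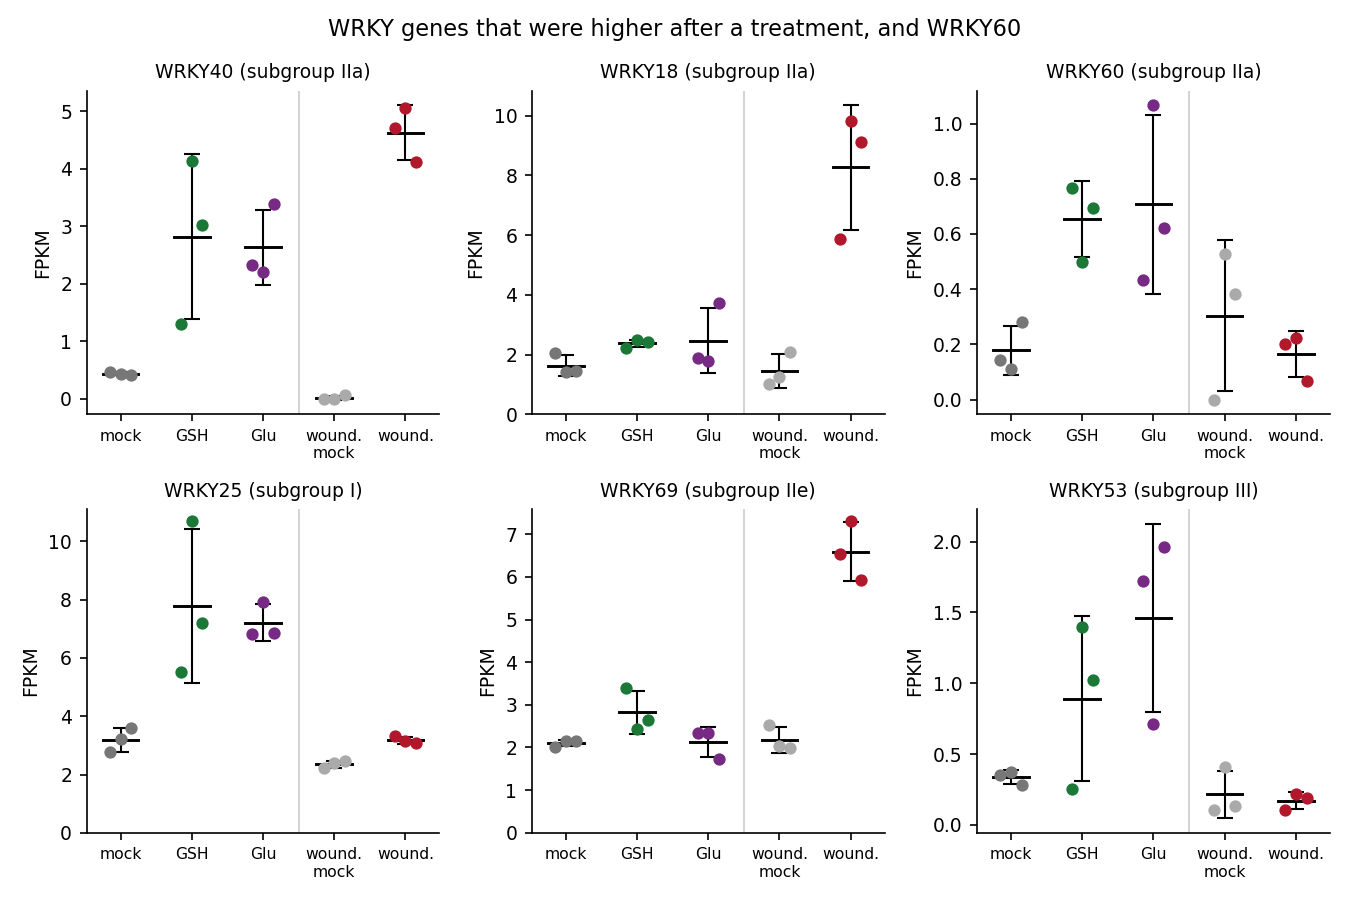
FPKM of WRKY40, WRKY18, WRKY60, WRKY25, WRKY69 and WRKY53 in the 3 libraries of each group (points), with the mean and SD as bars, where wound. stands for wounding. WRKY18 and WRKY69 have all their highest values in the wounding libraries, at 5.87 to 9.81 and 5.93 to 7.31 FPKM, and WRKY25 is highest in the GSH and Glu libraries, at 5.51 to 10.7 FPKM.

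Subgroup IId, whose members bind calmodulin, held both WRKY genes that were lower after wounding. WRKY7 (AT4G24240, chromosome 4, 12571538 to 12573783, plus strand), a negative regulator of defence against bacteria, had 7.70, 7.63 and 7.85 FPKM in wounding mock and 2.04, 2.38 and 1.61 FPKM in wounding. The wounding libraries lay far below all other libraries, since the lowest value elsewhere was 5.43 FPKM in Glu replicate 2. WRKY7 had a log2 fold change of -1.54 (SE 0.15, adjusted p = 0.00035), and the wounding mock mean was 3.84 times the wounding mean. In the mock libraries WRKY7 had 7.622, 7.375 and 7.801 FPKM, in the GSH libraries 7.10, 7.30 and 6.89 FPKM and in the Glu libraries 7.58, 5.43 and 9.65 FPKM. Its log2 fold change was -0.09 after GSH (SE 0.09, adjusted p = 0.65) and -0.04 after Glu (SE 0.17, adjusted p = 0.91).

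WRKY11 (AT4G31550, chromosome 4, 15289788 to 15291934, minus strand), also a negative regulator of basal resistance, was lower after wounding and after GSH. Its level was 9.44, 16.9 and 12.04 FPKM in wounding mock and 5.45, 5.65 and 5.73 FPKM in wounding. The wounding libraries were close to each other and below all wounding mock libraries, which were spread. For wounding the log2 fold change was -1.03 (SE 0.20, adjusted p = 0.011), and the adjusted p was 0.051 without wounding replicate 1. In the mock libraries WRKY11 had 15.2, 16.3 and 17.2 FPKM, in the GSH libraries 12.9, 10.1 and 11.7 FPKM and in the Glu libraries 12.4, 7.30 and 14.0 FPKM. All GSH and Glu libraries were below the mock libraries. For GSH it was -0.46 (SE 0.11, adjusted p = 0.047) and for Glu -0.54 (SE 0.19, adjusted p = 0.12), which did not pass. The GSH call was lost in 10 of 14 alternatives, among them those without mock replicate 1, 2 or 3 or GSH replicate 2 or 3. With wounding mock as the control, the log2 fold change after GSH was -0.11 (adjusted p = 0.81).

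The means of all 6 IId genes were lower after wounding, with a median log2 fold change of -0.45. Over all tested genes, 10354 of 17571 had a lower mean, with a median of -0.08. Of the 6 IId genes, 2 passed the test as lower, against 10.3% of all genes. WRKY17, a close relative of WRKY11, had 1.39, 3.23 and 2.80 FPKM in wounding mock and 1.02, 1.59 and 1.66 FPKM in wounding. Wounding mock replicate 1 lay within the range of the wounding libraries. The log2 fold change of WRKY17 was -0.49 (SE 0.25, adjusted p = 0.23), and without that replicate it was -0.74 (SE 0.17, adjusted p = 0.014). WRKY15, WRKY21 and WRKY39 had log2 fold changes of -0.16, -0.41 and -0.31 after wounding, none of which passed. After GSH the same 3 genes had 0.29, 0.46 and 0.42, also short of the test. The summed level of the 6 genes was 45.4, 48.8 and 49.2 FPKM in mock and 51.4, 50.7 and 49.1 FPKM in GSH, which overlapped. The sum was 42.7, 49.9 and 43.2 FPKM in wounding mock and 26.5, 27.8 and 26.6 FPKM in wounding, without overlap. Its mean went from 45.3 to 27.0 FPKM. Most of that drop came from the means of WRKY11 (12.8 to 5.61 FPKM) and WRKY7 (7.73 to 2.01 FPKM).

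**Figure D4:**
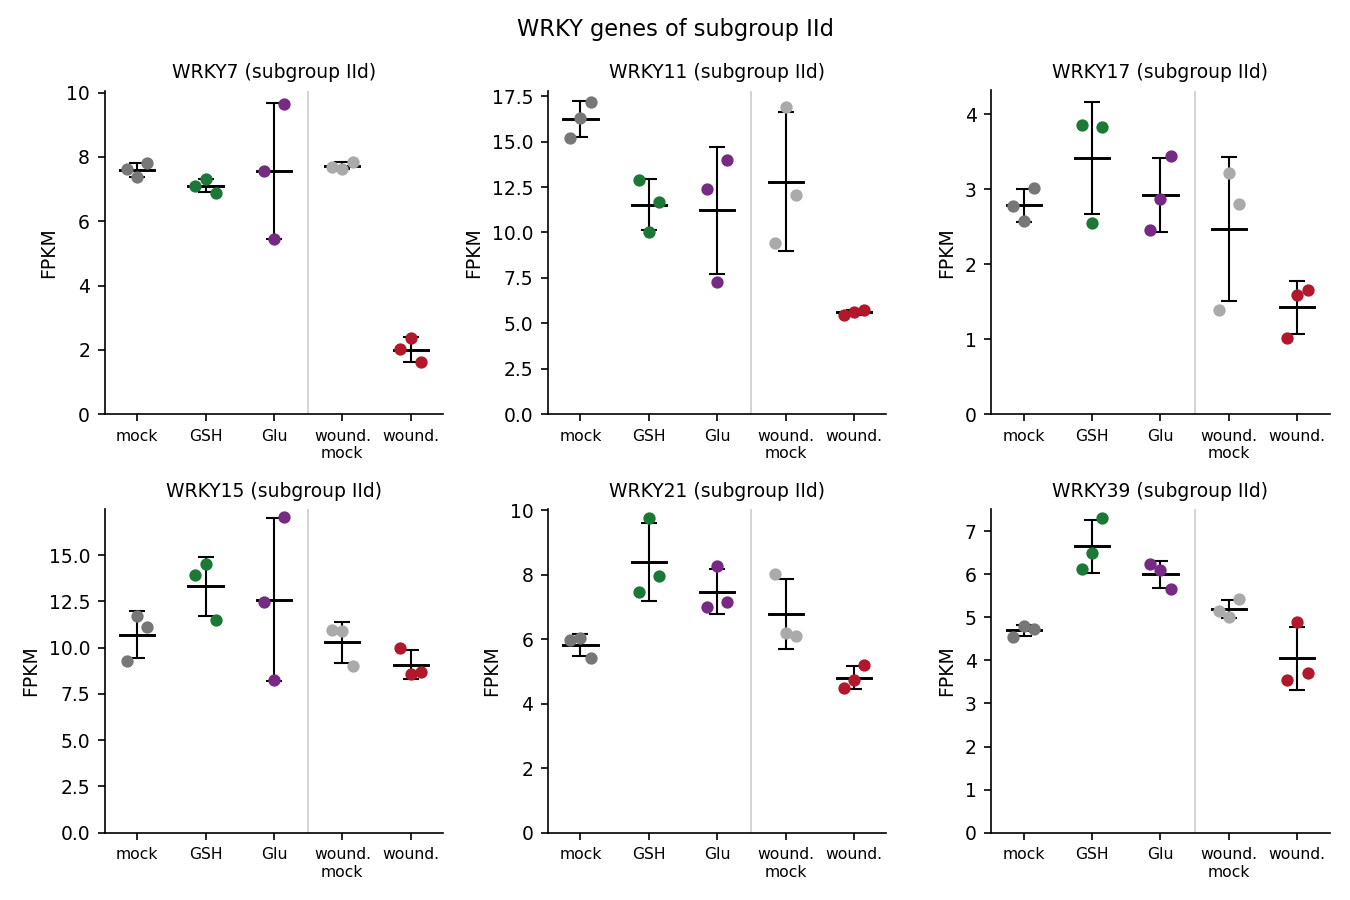
FPKM of the 6 WRKY genes of subgroup IId in the 3 libraries of each group (points), with the mean and SD as bars, where wound. stands for wounding. The wounding libraries of WRKY7 sit at 1.61 to 2.38 FPKM, below all other libraries of this gene, while WRKY21 and WRKY39 have their highest library in the GSH group.

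Subgroup III holds WRKY70, WRKY54, WRKY53 and WRKY46 among the tested members, genes tied to salicylic acid responses and leaf senescence. WRKY53 passed the test after Glu, with 0.352, 0.376 and 0.279 FPKM in mock and 1.72, 0.709 and 1.96 FPKM in Glu. These libraries did not overlap, although 4 of the 6 values were under 1 FPKM. WRKY53 rose by 0.84 on the log2 scale (SE 0.21, adjusted p = 0.042), and the call was lost in 9 of 13 alternatives, among them those without mock replicate 1, 2 or 3 or Glu replicate 1 or 3. WRKY53 overlaps AT4G23800. WRKY46 had 0.795, 5.02 and 1.96 FPKM in GSH against 0.130, 0.621 and 0.295 FPKM in mock. The groups did not overlap, and GSH replicate 2 was far above the other libraries. WRKY46 had a log2 fold change of 1.25 (SE 0.38, adjusted p = 0.10), so it did not pass. Without GSH replicate 1 it was 1.66 (SE 0.29, adjusted p = 0.0084). WRKY53 and WRKY46 reached 1 FPKM only in GSH and Glu libraries, so the filter favoured values above mock. WRKY53, WRKY46, WRKY70 and WRKY17 fall outside the rule for named genes, and their values by library were chosen for description after they were seen.

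WRKY70 had 17.6, 22.0 and 37.4 FPKM in wounding mock and 14.2, 16.1 and 15.1 FPKM in wounding. Its control libraries were more spread than the wounding libraries, and all were above them. The log2 fold change of -0.65 (SE 0.25, adjusted p = 0.12) did not pass. Without wounding mock replicate 1, the library with the fewest genes above 0, it was -0.88 (SE 0.20, adjusted p = 0.013). With the mock group as the control it was -1.35 (SE 0.08, adjusted p = 1.3e-06), since the mock libraries were higher than the wounding mock libraries. WRKY70 had 40.7, 31.1 and 27.7 FPKM after GSH and 42.1, 34.9 and 58.4 FPKM after Glu, both overlapping the mock libraries. WRKY54, the closest relative of WRKY70, had log2 fold changes of -0.20, 0.14 and 0.20 after GSH, Glu and wounding, none of which passed.

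Without wounding mock replicate 1, 9 of 30 members passed after wounding, among them all 5 that passed with it, and 30.6% of all genes passed in that setting. Of these 5, the log2 fold changes were then 2.45 for WRKY40, 1.78 for WRKY18, 1.33 for WRKY69, -1.54 for WRKY7 and -1.21 for WRKY11. WRKY18, WRKY32, WRKY40 and WRKY69 were then higher and WRKY3, WRKY7, WRKY11, WRKY17 and WRKY70 lower. Without GSH replicate 1, 8 of 30 members passed after GSH, among them the 3 that passed with it, and 8.82% of all genes passed. These were WRKY21, WRKY25, WRKY39, WRKY40, WRKY46 and WRKY53, which were higher, and WRKY11 and WRKY70, which were lower. The libraries differed within a group as well. Glu replicate 3 had the highest value of its group in 17 of 30 members, and Glu replicate 2 the lowest in 17. The median coefficient of variation of the 30 members was 11.1% in mock, 16.4% in GSH, 17.6% in Glu, 26.4% in wounding mock and 11.7% in wounding.

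In subgroup I, WRKY33, a regulator of camalexin synthesis and of resistance to necrotrophic fungi, did not pass in any comparison. Its log2 fold changes were -0.14 after GSH (SE 0.16), 0.25 after Glu (SE 0.32) and -0.36 after wounding (SE 0.19). Its Glu libraries were the most spread of its groups, with a coefficient of variation of 58.1%. The other I genes besides WRKY25, which are WRKY1, WRKY2, WRKY3, WRKY4, WRKY20 and WRKY32, ranged from -0.29 to 0.20 after GSH, from -0.36 to 0.20 after Glu and from -0.44 to 0.35 after wounding. None of these passed. The 3 tested genes of subgroup IIb (WRKY6, WRKY42 and WRKY47) and the 4 of IIc (WRKY8, WRKY23, WRKY50 and WRKY57) did not pass in any of the 3 comparisons. Their log2 fold changes lay between -0.06 and 0.57 after GSH, between -0.15 and 0.29 after Glu and between -0.39 and 0.57 after wounding. Of subgroup IIe, WRKY22 and WRKY29, which act in the response to bacterial flagellin, did not pass either.

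The members with no test were WRKY26 and WRKY44 of subgroup I, WRKY60 of IIa, WRKY31 of IIb, WRKY28, WRKY45, WRKY48, WRKY51 and WRKY75 of IIc, WRKY27, WRKY35 and WRKY65 of IIe, and WRKY30, WRKY38 and WRKY55 of III. Of these 15 genes, 12 did not reach 1 FPKM in any library. WRKY44, WRKY45 and WRKY60 reached it in 2, 1 and 1 libraries. The number of fragments behind these values is unknown, so no limit of detection can be given.

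The GSH and Glu groups were also compared with each other. By limma, 0 of 30 members passed, against 13 of 17571 genes (0.074%). An unadjusted p under 0.05 was reached by 0 members and by 8.78% of all genes. For WRKY40 the difference between GSH and Glu was 0.01 on the log2(FPKM + 1) scale, with a 95% interval from -0.63 to 0.65. The interval for WRKY25 ran from -0.39 to 0.51. The largest difference was that of WRKY46, 0.71 with an interval from -0.16 to 1.58. The intervals of these genes are wide enough to hold differences of up to 0.5 or more, so the comparison does not show that GSH and Glu acted alike. Between the untreated groups, mock and wounding mock, 0 of 30 members passed by limma, against 0.188% of all genes. An unadjusted p under 0.05 was reached by 2 members (WRKY40 and WRKY70) and by 6.02% of all genes. WRKY40 was higher in mock by 0.49 on the log2 scale (SE 0.13, adjusted p = 0.48), without passing.

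The effects of GSH and of wounding, each against its own mock, differed in 7 of 30 members, against 13.4% of all genes. For Glu and wounding they differed in 8 members, against 15.1%. A difference above 1 in size was held by 3 of the former (6.88% of all genes) and 4 of the latter (7.26%). Both differences use the same wounding libraries. Without wounding mock replicate 1, 10 members differed for GSH (20% of all genes) and 13 for Glu (22.5%). These held all the members that differed with that library. The effect of wounding was larger on WRKY18, whose GSH effect minus wounding effect was -1.54 (SE 0.28, adjusted p = 0.0028) and whose Glu effect minus wounding effect was -1.55 (SE 0.34, adjusted p = 0.0088). For WRKY40 the differences were -1.13 (SE 0.33, adjusted p = 0.041) and -1.13 (SE 0.21, adjusted p = 0.0024). They hold the difference between its controls, which was 0.49 higher in mock than in wounding mock (SE 0.13, adjusted p = 0.48). The difference between GSH and wounding on WRKY40 lost its call in 10 of 19 alternatives, among them 9 of 12 that left out a library. On WRKY69 the differences were -0.96 (SE 0.19, adjusted p = 0.0048) and -1.24 (SE 0.18, adjusted p = 0.00055). WRKY7, which passed after wounding alone, had differences of 1.46 (SE 0.16, adjusted p = 5.1e-05) and 1.505 (SE 0.23, adjusted p = 0.00068). WRKY25 differed between Glu and wounding by 0.65 (SE 0.16, adjusted p = 0.016).

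All 6 genes of subgroup IId had a GSH effect above the wounding effect, with a median difference of 0.71, and 3 of them (WRKY7, WRKY21 and WRKY39) passed the test. The median of this difference over all tested genes was 0.13, and it was -0.01 after the FPKM values were scaled by median ratios. For Glu against wounding all 6 differences were also positive, with a median of 0.57, and the same 3 genes passed. The GSH and Glu differences share their mock, wounding mock and wounding libraries. For Glu, the call on WRKY21 was lost with median ratio scaling (adjusted p = 0.051) and that on WRKY39 in 7 of 19 alternatives. The 4 tested genes of subgroup III had a median Glu difference of 0.66, with 3 positive, and 0 passed. Over all 17571 tested genes, the difference was positive in 11370 for GSH and in 10328 for Glu. It was positive and passed the test in 1436 genes for GSH and 1577 for Glu. WRKY21 had 5.96, 6.04 and 5.42 FPKM in mock, 7.46, 9.77 and 7.96 FPKM in GSH, 8.02, 6.19 and 6.11 FPKM in wounding mock and 4.50, 4.73 and 5.19 FPKM in wounding. Its GSH libraries were above mock and its wounding libraries below wounding mock, although neither change passed on its own. The controls differed too, since the mock libraries of WRKY21 and of WRKY39 were all below their wounding mock libraries. Mock minus wounding mock was -0.18 for WRKY21 (SE 0.14) and -0.12 for WRKY39 (SE 0.12), and neither passed. These control differences are part of the differences of the effects. The difference of the effects was 0.87 for WRKY21 (SE 0.18, adjusted p = 0.0072) and 0.73 for WRKY39 (SE 0.17, adjusted p = 0.014). WRKY21 and WRKY39 were chosen for this description after their values were seen.

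Other genes of the pathway were taken from 4 lists. Of 27 further WRKY genes, 4 passed the filter. After wounding 1 of these 4, TTR1, was lower (10.3% of all genes), with a log2 fold change of -0.60. Among 12 protein kinases that act upstream of WRKY factors, 3 were higher after GSH (3.92% of all genes), 6 after Glu (6.66%) and 1 after wounding (8.29%), and 2 were lower after wounding (10.3%). None was a DEG. CPK6, a calcium-dependent kinase, had a log2 fold change of 0.96 after GSH and 0.97 after Glu, and MEK1, a MAP kinase kinase also called MKK1, of 0.80 and 0.84. CPK6 had 1.28, 3.70 and 2.85 FPKM in wounding mock and 5.49, 4.18 and 4.68 FPKM in wounding, without overlap. The wounding and wounding mock libraries of MEK1 overlapped. CPK6 and MEK1 were chosen for description after their values were seen. Of 8 genes for VQ proteins, which bind WRKY domains, 6 were tested, and 2 were higher after GSH (3.92% of all genes), 0 after Glu (6.66%) and 1 after wounding (8.29%). The last was AT3G22160 (JAV1), a repressor of jasmonate responses. It had 1.10, 0.348 and 0.483 FPKM in wounding mock and 2.42, 3.15 and 3.22 FPKM in wounding, with a log2 fold change of 1.28 (SE 0.21, adjusted p = 0.0055). JAV1 was also above its mock libraries (0.513, 0.421 and 0.281 FPKM) after GSH, at 1.67, 1.86 and 1.55 FPKM. After Glu it had 0.601, 1.36 and 0.791 FPKM.

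Of 17 genes reported as targets of WRKY factors, 8 passed the filter. After GSH 4 were higher (3.92% of all genes), after Glu 4 (6.66%), and after wounding 4 were higher (8.29%) and 1 was lower (10.3%). The median log2 fold change of these 8 was 0.58, 0.48 and 0.46. JAZ5, a jasmonate signalling repressor, had 1.97, 1.56 and 2.08 FPKM in mock, 15.3, 13.3 and 12.3 FPKM in GSH and 8.78, 7.40 and 10.3 FPKM in Glu. Its wounding libraries had 74.7, 71.6 and 68.9 FPKM, far above the wounding mock libraries at 0.411, 0.473 and 0.363 FPKM. The log2 fold changes of JAZ5 were 2.35, 1.77 and 5.68. JAZ1 had 1.38, 1.07 and 5.14, in the same order of GSH, Glu and wounding. Its level was 10.2, 7.84 and 6.98 FPKM in mock but 0.144, 1.67 and 2.12 FPKM in wounding mock. The mock libraries of JAZ5 were above its wounding mock libraries as well. A gap between the effects on these genes therefore also holds the gap between their controls. RRTF1, an ethylene response factor, had 1.81 after wounding and 0.72 after GSH, both of which passed, and 0.14 after Glu, which did not. RRTF1 reached 1 FPKM in the wounding libraries alone, so the filter favoured a higher level after wounding. The gene lists were put together by hand and are not complete.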

How the data were processed

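RNA-seq of leaf 6 gave 15 libraries in 5 groups of 3, grouped by their labels. The authors trimmed the reads with cutadapt and Trimmomatic, aligned them with HISAT2 and used StringTie for expression levels, per the methods and the processing notes of the labels. The deposited values are FPKM, although the table is named as raw counts. Tests on counts, such as DESeq2 (1.16.1), which the authors used for their own DEGs, could therefore not be run, and the depth behind a value is unknown. The submitters' notes name TAIR10, and positions, overlaps and sequences given here are from RefSeq TAIR10.1, which held 99.1% of the gene IDs of the table.

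Values were compared as log2(FPKM + 1) with limma 3.58.1 in R 4.3.3 (moderated test with a variance trend, only the libraries compared in each fit). Adjusted p values are by Benjamini-Hochberg over the 17571 genes that reached 1 FPKM in 3 of 15 libraries. The thresholds for DEGs were those of the study, 0.05 for the adjusted p and 1 for the size of the log2 fold change. There were 7 comparisons. An exact permutation test of 3 against 3 libraries cannot go below p = 0.1 and was not used. The script was tested on simulated data. There, log2 changes of 0.75 passed in 54 of 68 genes for GSH, 48 of 68 for Glu and 28 of 68 for wounding. False calls numbered 12, 10 and 12 in the same order. Changes of this size can therefore be missed, most of all after wounding.

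Values per library are given for members that were DEGs in GSH, Glu or wounding against their own mock, or that passed in at least 2 of these 3 comparisons. Other members are given by subgroup, and those named beyond the rule were chosen after their values were seen. The members and gene lists were chosen with earlier results of these data known. Alternatives changed the pseudocount (0.1), the filter, the scaling, the threshold, the variance trend, the libraries in the fit, the control group and the use of replicate numbers, or left out 1 library.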

Additional observations from a re-analysis of the deposited data

Results flagged for a closer look

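For the following WRKY genes the effect of a small molecule differed from the effect of wounding, by a limma test of the difference of both log2 fold changes (adjusted p under 0.05). The GSH effect minus the wounding effect was -1.13 for WRKY40, -1.54 for WRKY18 and -0.96 for WRKY69, so these rose more after wounding, each against its own control. For WRKY40 the controls themselves differed by 0.49, with mock above wounding mock, and this is part of its value. The GSH effect was above the wounding effect for other members. The difference was 1.46 for WRKY7, 0.87 for WRKY21, 0.73 for WRKY39 and 0.96 for WRKY47. The Glu effect minus the wounding effect was -1.13 for WRKY40, -1.55 for WRKY18, -1.24 for WRKY69 and -0.48 for WRKY32. It was 1.505 for WRKY7, 0.73 for WRKY21, 0.60 for WRKY39 and 0.65 for WRKY25. The call on WRKY32 was lost in 11 of 19 alternatives, 10 of them with 1 library left out, and its highest adjusted p was 0.11. The calls on WRKY39 for Glu and on WRKY47 for GSH were lost in 7 and 6 of 19, all with 1 library left out, and that on WRKY40 for GSH in 10. Those on WRKY21 and WRKY25 for Glu were each lost in 1 of 19. Over all tested genes, 13.4% differed for GSH and 15.1% for Glu. WRKY47 had 1.13, 2.10 and 1.34 FPKM in GSH against 0.518, 0.655 and 0.882 FPKM in mock, and 0.258, 0.237 and 0.341 FPKM in wounding against 0.476, 0.913 and 0.675 FPKM in wounding mock. The groups of WRKY47 did not overlap in either comparison, and its values were chosen for description after they were seen. WRKY47 reached 1 FPKM only in GSH and Glu libraries, so the filter favoured values above mock.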

How the results depend on the processing

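Of 26 calls on single members, 15 were kept in every alternative, 0 were reversed and 11 were lost in at least 1, and 4 of these in at least as many alternatives as kept them. The number of DEGs among the members was 0 to 3 after GSH when 1 library was left out, against 2 with all. It was 1 to 2 after Glu (1 with all), 4 to 5 after wounding (5 with all), 2 to 5 for the GSH effect minus the wounding effect (3 with all) and 4 to 5 for the Glu effect minus the wounding effect (4 with all). After GSH there were 0 DEGs by limma without a filter on low values and 1 with median ratio scaling. Without the filter, 0 members passed the adjusted p after GSH. After Glu there were 3 with a pseudocount of 0.1, 3 by adjusted p alone and 2 with wounding mock as the control. For the GSH effect minus the wounding effect there were 5 with a pseudocount of 0.1 and 7 by adjusted p alone, and for the Glu effect minus the wounding effect 8 by adjusted p alone. After wounding, 16 of 30 members passed the adjusted p with mock as the control (36.4% of all genes) and 10 with all libraries in 1 fit (29.3%). The cause of these shifts was not tested.

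The deviations of samples with the same replicate number had correlations of 0.18, 0.19 and 0.00 for wounding and negative ones for GSH and Glu. No correlation between unlike numbers was computed, so whether the numbers pair the libraries was not settled. With the replicate number as a block, the DEGs were 2 after GSH, 1 after Glu, 5 after wounding, 3 for GSH minus wounding and 4 for Glu minus wounding, the same counts as without it. With the block the adjusted p no longer passed for WRKY11 after GSH (0.11), WRKY53 after Glu (0.067) and WRKY32 in the Glu effect minus the wounding effect (0.067). Depth is unknown and limits the values under 1 FPKM.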

Other observations

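Some members that failed the filter had low values that varied between groups, and none was tested. WRKY26, a subgroup I gene like WRKY25, was listed at 0 in all wounding mock libraries and at 0.272, 0.490 and 0.394 FPKM in the wounding libraries. WRKY30, a subgroup III gene, was listed at 0.218, 0.292 and 0.465 FPKM in Glu, at 0 in all GSH and wounding libraries and at no more than 0.0728 FPKM in the mock and wounding mock libraries. WRKY38, also of subgroup III, had 0.370, 0.410 and 0.502 FPKM in Glu against 0.114 to 0.354 FPKM in mock and 0.0486 to 0.323 FPKM in GSH. It was listed at 0 in all wounding libraries and at 0, 0.0567 and 0 FPKM in wounding mock. WRKY45 of subgroup IIc had 0.653, 0.925 and 1.18 FPKM in wounding and 0, 0.401 and 0.390 FPKM in wounding mock. These genes were chosen after their values were seen, and values this low can rest on few fragments.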
